A study of Mus musculus with 2 samples.

Results

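Transcripts known to the array only by a cDNA clone accession were compared between bleomycin-injured lung of C57BL6/N mice and of mice overexpressing HSP27 (heat shock protein 27, encoded by Hspb1). The array carried 2480 probes whose systematic name was AK followed by digits, for 2437 accessions. Members were selected on detection: a probe had to be well above background, by the scanner software's flag, in at least 50% of its spots on both arrays. By this rule 1269 clone probes (51.2%) for 1256 accessions were members, out of 39429 non-control probes on the array. An outlier spot left 2 members without a value on one array, so 1267 were compared.

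AK is an accession prefix of the DNA Data Bank of Japan, under which most mouse full-length cDNA clones sequenced at RIKEN were filed. That collection holds coding messenger RNAs, but also many transcripts with no long open reading frame, antisense transcripts, and clones that retain introns or start within long 3′ untranslated regions. A probe keeps such a name where the array's designers did not place it in a curated RefSeq messenger RNA, whose accession starts with NM. A gene table of RefSeq paired 1 of the 2437 accessions with a symbol, AK122498 with Lrrc7, and that probe was not a member (signal 3.09 and 3.30, not well above background on either array). The members are therefore given by accession.

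Whole lung was taken 14 days after bleomycin, which damages the alveolar lining and is used to model lung fibrosis, instilled into the trachea at 1.25 mg/kg. There was 1 array for C57BL6/N and 1 for the C57BL6/N HSP27 transgenic, both from mice labelled male and aged 6 weeks, with no lung free of bleomycin. The labels used here name neither the promoter nor the species of the transgene, nor the number of founder lines, nor whether RNA of several mice was pooled. Since each group is 1 array, the spread among mice is unknown, no test between groups was made, and precision is limited by the number of arrays. In whole lung, fewer cells of a type and less RNA per cell cannot be told apart.

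The arrays were alike in brightness. The 75th percentile of signal over non-control probes was 1287 in C57BL6/N and 1426 on the transgenic array, and each array's values were divided by its own percentile before comparison. Hspb1 read 41040 and 53554, a log2 difference of 0.24 after scaling. All 10 lung epithelial markers listed were well above background on both arrays, among them Sftpc, the surfactant protein of alveolar type 2 cells, at 448223 and 376982. Their log2 differences ran from -0.63 to -0.01, with a median of -0.36 and 1 marker at least 1.5-fold lower. Markers of other tissues and of airway cells moved with the same contrast. On the transgenic array all 9 measured of 12 cardiac muscle markers, 4 of 8 adipose markers and 4 of 6 basal airway markers, again all those measured, and 8 of 8 airway secretory markers were at least 1.5-fold higher. Their signals, each list summed in units of the array's 75th percentile, went from 5.02 to 40.9 for cardiac muscle, from 3.20 to 32.7 for adipose tissue, from 3.07 to 6.02 for basal cells and from 4.68 to 259.6 for secretory cells. Not well above background in C57BL6/N were 3 cardiac, 4 adipose and 2 basal markers. Trp63 (basal) and Cidec (adipose) counted as higher by log2 differences averaged over 2 probes each, 0.998 and 0.63. Their mean signals moved less, from 1903 to 1906 for Trp63 and from 764 to 1017 for Cidec. No other basal marker read above 59.8 in C57BL6/N, so the basal sum there was mostly Trp63, whose mean signal hardly changed. The 8 endothelial markers summed to 88.2 and 49.1, with 4 at least 1.5-fold lower and 0 higher. Xist, the RNA of the inactive X chromosome, read a mean of 426 over its probes in C57BL6/N and 3.10 on the transgenic array, where it was not well above background. The Y-linked genes Ddx3y (508 and 2437) and Eif2s3y (800 and 3338) were well above background on both arrays and higher on the transgenic array, by log2 differences of 2.11 and 1.91, so Xist and Y-linked signal stood together in C57BL6/N, labelled male. The part of tissue content or sex in the clone results was not tested.

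The clone transcripts were lower on the transgenic array as a group. Of the 1267 members, 977 (77.1%) lay below 0 on the log2 scale, and the median difference was -0.40, a signal 1.32-fold lower. At least 2-fold lower were 178 members (14.05%), and 17 (1.34%) were at least 2-fold higher. Over all 26387 probes under the same filter these shares were 3.3% lower and 3.4% higher, with a median of -0.06. At 1.5-fold, 458 members (36.1%) were lower and 51 (4.03%) higher, against 12.2% and 9.54% of all probes. For each member past 2-fold upward there were 10.5 downward, whereas of 20051 NM probes 735 were at least 2-fold higher and 454 lower. In unscaled signal 878 members still read lower on the transgenic array, the one with the higher percentile, and their median was -0.25 against 0.09 over all probes. Unscaled, 109 members were at least 2-fold lower. The counts moved with the treatment of dim signal. After normexp background correction with an offset of 50, 47 members were at least 2-fold lower and 3 higher. That offset, added to both arrays, by itself shrinks dim differences. Under a stricter filter on dim probes, 94 of 616 (15.3%) were lower and 3 (0.49%) higher, against 2.31% and 4.14% of NM probes of like signal. The stricter filter thus reduced the count lower but not the share. With no filter on dim probes, 319 of 2478 (12.9%) were lower and 103 (4.16%) higher, a less one-sided split. NM probes of like signal then had 6.46% lower and 9.17% higher.

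**Figure D1:**
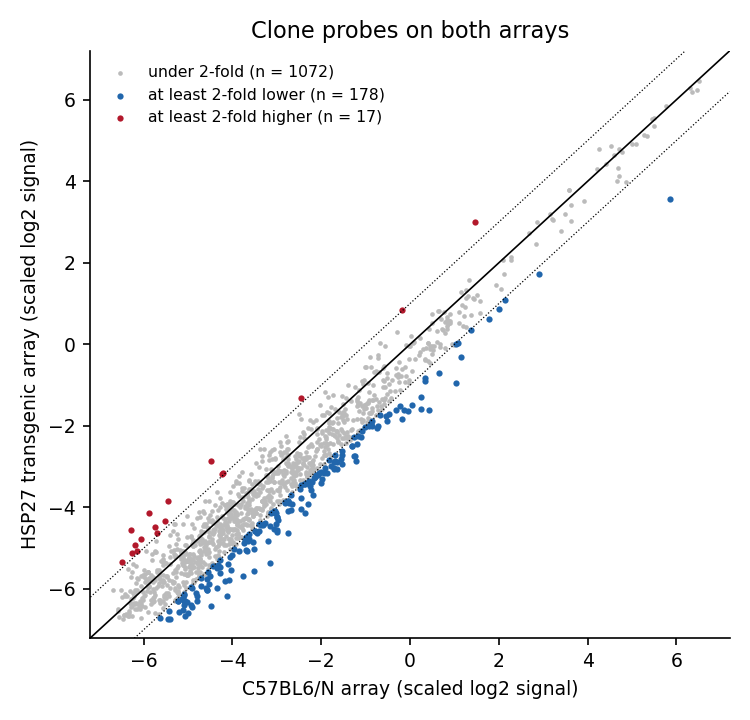
Scaled log2 signal of each of the 1267 clone probes on the C57BL6/N array (horizontal axis) and on the HSP27 transgenic array (vertical axis), where 0 is the array's 75th percentile; the solid line marks equality and the dotted lines 2-fold. The 178 blue points at least 2-fold lower on the transgenic array run along the whole range of signal, and the 17 red points at least 2-fold higher are mostly dim.

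The members' distribution was shifted downward as a whole. Their central 50% of log2 differences ran from -0.77 to -0.05, and that of NM probes weighted to the same signals ran from -0.37 to 0.31. At the lower end, the 5th percentile was -1.31 for clone probes and -0.89 for the weighted NM probes. At the upper end, the 95th percentile was 0.52 against 1.07. Over all members the difference ran from -2.30 to 1.76.

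Technical spread was small beside the largest of these differences. Probes printed in 10 spots gave an SD of the difference between same-position spots of 0.15, 0.06 and 0.05 in dim, middle and bright classes of 105 probes each. The scanner software put the error of a member's spot at a median of 10.3% of its signal in C57BL6/N and 10.4% on the transgenic array. AK018620 was the only member printed in 10 spots. Its spots read from 132.2 to 147 (median 139) in C57BL6/N and from 113 to 149 (median 140) on the transgenic array, so that the spots of the arrays overlapped, and its scaled difference was -0.17. These errors describe spots and say nothing of mice.

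The members were then set beside NM probes of the same brightness, since dim probes vary more. The median mean signal of members was -3.67 on the scaled log2 scale and that of NM probes -0.81, so NM probes were weighted to the members' distribution over 20 bins of mean signal. So weighted, the NM probes had a median difference of -0.05, with 3.54% at least 2-fold lower and 5.70% at least 2-fold higher. The members' median minus that of the NM probes was -0.35. The share at least 2-fold lower differed by 10.5 percentage points and the share at least 2-fold higher by -4.35. Weighting on the C57BL6/N signal alone gave a median difference between the classes of -0.38, and on the transgenic signal alone -0.31. There is no test of these class differences, because probes are not replicates and each array is 1 sample.

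**Figure D2:**
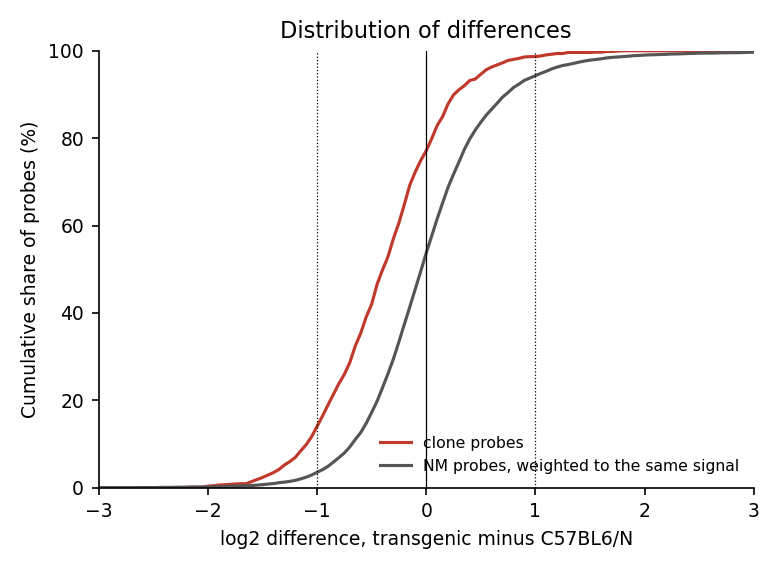
Cumulative share of probes (vertical axis, %) with a log2 difference, transgenic minus C57BL6/N, at or below the value on the horizontal axis, for the 1267 clone probes and for 20051 NM probes weighted to the same signal; dotted lines mark 2-fold. The clone curve lies to the left of the NM curve except at its far lower end (0.158% against 0.197% at -2.05), and crosses 0 at 77.1% against 53.7%.

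The shift was present at every level of brightness. In 10 classes of members by mean signal, of equal size, the clone median was -0.21 in class 1 (the dimmest), -0.53 in class 9 and -0.33 in class 10. The NM medians in the same signal ranges lay between -0.09 and -0.01. In class 10, 9.45% of 127 clone probes were at least 2-fold lower, against 1.05% of 8702 NM probes. In class 9 the shares were 17.3% and 2.00%. Members 2-fold higher were fewer with brightness: of 3 broader classes, the dimmest held 11 of the 17, the middle 3 and the brightest 3, whereas the 178 lower ones were spread as 52, 62 and 64. From dim to bright, 2.60%, 0.71% and 0.71% of members were higher. NM probes weighted to each class also became fewer, at 7.16%, 6.72% and 3.21%. At least 2-fold lower were 12.3%, 14.7% and 15.1% of members, against 5.38%, 3.31% and 1.93% of weighted NM probes.

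**Figure D3:**
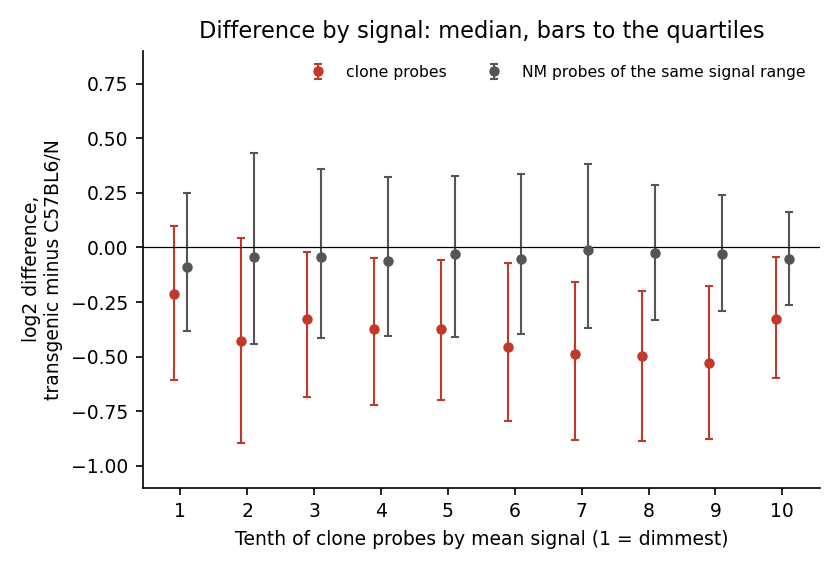
Median log2 difference, transgenic minus C57BL6/N (vertical axis), with bars to the 25th and 75th percentiles, for clone probes in 10 classes of mean signal (horizontal axis, dimmest first) and for NM probes within the same signal limits. Every clone median lies below the NM median beside it, by least in the dimmest class, where they are -0.21 and -0.09.

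The largest differences downward included some of the brightest members. AK016943 read 74440 in C57BL6/N and 16740 on the transgenic array, a 4.93-fold lower value (log2 difference -2.30, software error of both spots 0.20). AK032738 read 2634 and 741, 3.94-fold lower, with an error of 0.20. AK035826 read 1730 and 467, 4.10-fold lower. Each of these differences was far larger than its spot error, but each rested on 1 spot per array. AK036896 read 1529 and 472 (-1.84). AK017568 was dimmer, at 250 and 81.3 (-1.77, and -1.27 after normexp). AK163891 read 191 and 58.1 (-1.87, and -1.18 after normexp). All of these 6 transgenic signals were above that array's lowest signal called well above background, 12.5, which the detection rule ensures for every member.

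Another 6 of the 12 largest differences downward came from dim spots. AK053394 read 144 and 34.9 (-2.19, error 0.25). AK157552 read 73.9 and 19.8 (-2.05, error 0.31). AK086623 read 112 and 30.5 (-2.03, error 0.25). For AK157552 the transgenic signal was near the limit of detection, and the same held for AK053536, at 57.3 and 16.6 (-1.94). AK047256 read 94.7 and 27.8 (-1.92). AK087301 read 76.6 and 26.1 (-1.70). All 12 differences were below 0 under each alternative processing that kept the probe. They were picked as the largest in these same spots, which most alternatives only rescale or filter. The unchanged sign therefore adds no support. After normexp the 6 dim ones were smaller: -1.13 for AK053394, -0.86 for AK157552, -1.01 for AK086623, -0.63 for AK053536, -0.87 for AK047256 and -0.74 for AK087301.

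Upward differences were smaller and mostly near background. AK040896 was the exception in brightness among the 12 largest, at 3547 in C57BL6/N and 11453 on the transgenic array, 2.91-fold higher (log2 difference 1.54, error 0.20). AK040883, whose accession number is close to it, read 57.9 and 197 (1.62, error 0.21). AK154954 read 234 and 569 (1.13). The other 9 read at most 29.6 on the C57BL6/N array. AK157781 had the largest difference upward, at 21.7 and 81.3 (1.76, error 0.27). AK039736 read 16.6 and 60.4 (1.72). AK048002 read 29.6 and 99.8 (1.61). These 3 were dim on the C57BL6/N array, whose lowest signal called well above background was 11.9. AK083726 read 19.2 and 51.8 (1.28), AK016075 17.5 and 47.1 (1.28), and AK135228 24.1 and 63.6 (1.25). AK015109 read 28.0 and 70.5 (1.18), AK006025 14.3 and 35.5 (1.17), and AK017932 16.8 and 41.3 (1.15). Software errors of these last 6 lay between 0.26 and 0.37. After normexp the 9 dim differences were between 0.24 (AK006025) and 0.61 (AK039736), so none was 2-fold, and that of AK040883 was 1.05.

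**Figure D4:**
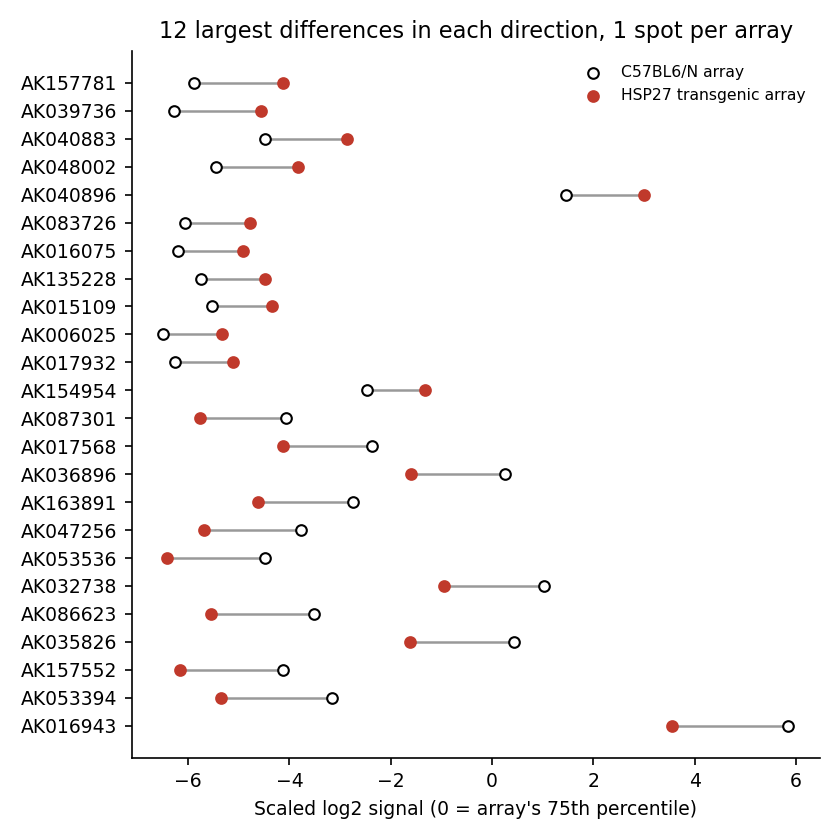
Scaled log2 signal (horizontal axis, 0 is the array's 75th percentile) of the 12 clone probes with the largest difference in each direction, 1 spot per array, on the C57BL6/N array (open circles) and the HSP27 transgenic array (filled circles). The lower clones fell by up to 2.30, and AK040896 stands apart among the higher ones by its brightness.

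Clones read by more than 1 probe were compared probe by probe. There were 13 accessions with 2 member probes, and none with more. For 8 of them both probes lay below 0, for 2 both lay above 0, and for 3 they lay on both sides. Since 77.1% of all members lay below 0, unrelated probes would also often share a side, and these counts do not measure agreement. The probes of a clone differed by a median of 0.13. AK042062 showed this over a wide span of brightness, with one probe at 32.4 and 25.3 (-0.51) and the other at 871 and 689 (-0.48). AK139292 read 13525 and 9834 at one probe (-0.61) and 212 and 183 at the other (-0.36). AK139675 was higher at both, at 386 and 601 (0.49) and at 867 and 1394 (0.54). For AK040705 the probes disagreed: one read 661 and 383 (-0.93) and the other 123 and 241 (0.82), so this accession has no single direction. Probes of 1 clone share a transcript and are not replicates of a condition.

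Accession number, which broadly follows the order in which clones were filed, divided the members. The 580 members with numbers from 30000 to below 100000 had a median of -0.50, with 110 (19.0%) at least 2-fold lower and 7 higher. The 323 members below 30000 had a median of -0.29 (34 lower, 6 higher). The 359 from 100000 to below 200000 had a median of -0.32 (34 lower, 4 higher). NM probes weighted to each range's signals were alike, with medians of -0.05 and 3.59%, 3.64% and 3.36% at least 2-fold lower in ascending order of the ranges. The middle range had the highest share at each brightness: in dim, middle and bright members it had 18.4%, 18.2% and 20.3% at least 2-fold lower, the lower range 6.19%, 11.2% and 14.6%, and the upper range 7.89%, 12.6% and 7.94%. The lower and upper ranges kept no fixed order between them. In blocks of 10000 numbers with at least 40 members, a division chosen after seeing the data, medians ran from -0.12 (55 members below 10000) to -0.60 (66 members from 50000 to 59999). The 5 members at 200000 and above had a median of -0.43 and 0 past 2-fold.

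Probe design was considered beside this, since 1053 of the members had names beginning with A_55. These had a median of -0.43 (162 lower, 12 higher at 2-fold), and NM probes of the same prefix and signal had a median of -0.07. The 82 members with A_66 had a median of -0.24 against -0.12 for their NM counterparts, with 6 lower (7.32%) against 5.38%. The 68 with A_52 had a median of -0.35 and the 51 with A_51 a median of -0.18, against -0.03 and 0.04 for NM probes. The 13 with A_65 had a median of -0.51 and 0 past 2-fold. Clone medians thus lay below those of NM probes in each prefix, by least in A_66. Among A_55 probes alone, the accession ranges had medians of -0.32, -0.54 and -0.31 in ascending order.

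**Figure D5:**
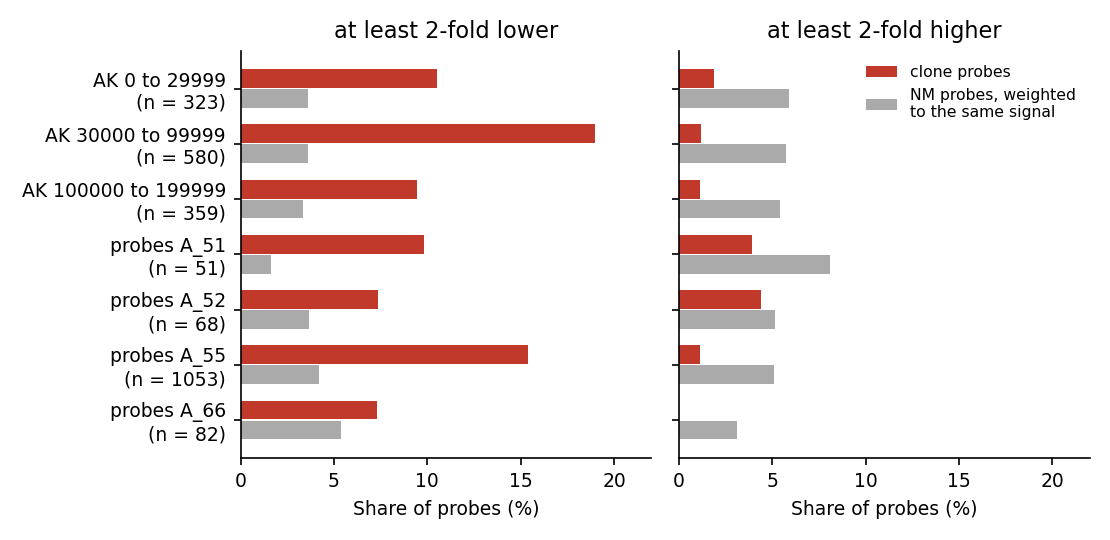
Share of probes (horizontal axes, %) at least 2-fold lower (left) and at least 2-fold higher (right) on the transgenic array, for clone probes by range of accession number and by prefix of the probe name where at least 50 members fell in a class, and for NM probes weighted to the same signal. Accession numbers from 30000 to below 100000 reach 19.0% lower, and every clone bar on the left is longer than the NM bar beside it.

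The shift was present in all bands of the array. In 4 equal bands of array rows the clone median ran from -0.35 to -0.44, and its distance from the NM median of the same band ran from -0.31 to -0.39. In 4 bands of columns it ran from -0.34 to -0.47, with differences from NM probes of -0.30 to -0.45. Members at least 2-fold higher numbered 0 of 330 in the last band of columns and from 4 to 7 in the others. The arrays shared 1 slide and 1 scan. Since each group was 1 array, an array's place on the slide cannot be told apart from its group.

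Other probes without a RefSeq messenger RNA were compared for likeness, weighted to the clone probes' signals. Probes for NR accessions, curated non-coding RNAs, had a median of -0.13 over 603 probes, with 5.44% at least 2-fold lower and 2.74% higher. Probes for Ensembl transcripts had a median of -0.21 over 1200, with 7.29% lower and 2.04% higher. Those for TC transcripts, assembled from expressed tags, had a median of -0.21 over 228, with 6.60% lower and 1.07% higher. Those with NAP names had a median of 0.02 over 659, with 2.05% lower and 3.36% higher. NAP probes were far brighter than clone probes, with a median mean signal of 1.71 on the scaled log2 scale. Their weighted values therefore rest mostly on their dimmer probes. The clone probes' median of -0.40 and their 14.05% lower lay beyond those of each of these classes, in a comparison that has no test.

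Clone probes near the detection threshold were dim on both sides of it. Ranked by the lower of a probe's scaled values on the arrays, the 3 members lowest in rank were AK020166 at 14.7 and 13.3, AK081233 at 30.4 and 13.4, and AK005727 at 29.3 and 13.5 (C57BL6/N, then transgenic). By the same ranking, the highest clone probes outside were AK054344 at 37.6 and 18.1, AK079537 at 16.4 and 17.5, and AK042479 at 15.8 and 21.96, each not well above background on at least one array. The 2 members without a value were AK148702, at 14940 in a spot of uneven pixels in C57BL6/N and 12890 on the transgenic array, and AK047890, at 2051 and, in an uneven spot, 446. Of the other clone probes, 1038 were well above background on neither array.

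Because the rule asks for detection on both arrays, transcripts lost on one array are not members, and these are given as bounds. On the C57BL6/N array alone 110 clone probes were well above background, and on the transgenic array alone 63, against 412 and 640 of 26584 NM probes. A bound sets the bright value against the higher of the dim probe's own signal and the lowest signal well above background on that array. By it 35 of the 110 (31.8%) were at least 2-fold lower on the transgenic array, where the same bound gave 26% of all 914 probes detected in C57BL6/N alone and 26.2% of the 412 NM probes. Likewise 14 of the 63 (22.2%) were at least 2-fold higher, against 34.1% of all 984 probes detected in the transgenic alone and 38.2% of 638 NM probes with a value. The clone share lower was near the background. AK138907 (91.2 and 2.79) was at least 8.09-fold lower and AK020886 (90.7 and 3.09) at least 8.04-fold. AK032396 (53.2 and 2.98) was at least 4.72-fold lower, AK076535 (50.5 and 13.5) at least 4.14-fold, and AK148965 (43.1 and 10.1) at least 3.82-fold. In the other direction AK045899 (2.53 and 71.0) was at least 5.36-fold higher, AK014513 (2.80 and 59.1) at least 4.47-fold, and AK138305 (7.51 and 55.3) at least 4.18-fold. AK082554 (2.70 and 39.3) and AK153587 (9.95 and 38.7) were at least 2.97-fold and 2.92-fold higher. These bounds rest on dim signal, and the offset of 50 in normexp by itself shrinks such bounds. After normexp the bounds were 1.36 on the log2 scale for AK138907 and 1.21 for AK020886, and between 0.36 (AK153587) and 0.99 (AK045899) for the other 8, and of all clone probes on one array alone 2 of 110 and 0 of 63 had a bound of 2-fold.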

How the data were processed

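Total RNA of whole lung was labelled with Cy3 and hybridised to 1-colour arrays. Per the file headers, the deposited intensity per spot came from Agilent Feature Extraction 11.5.1.1, for a design on build mm9, with background subtracted and trends across the array removed by that software and no normalization between arrays. The deposited table of the whole series equalled it within 0.1% for all 39022 and 39020 probes with 1 usable spot, as an intensity on a linear scale. Flags and position per spot, deposited beside it, gave detection, outliers and place.

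Control and outlier spots were left out, log2 signals of a probe's spots were averaged, and each array's 75th percentile over non-control probes was subtracted. No spot of a member was saturated. Differences are transgenic minus C57BL6/N. NM probes were weighted by bins of mean signal, with no drawing of probes. No p-value is given. The members, lists and rules were chosen with earlier results of these data known. Named probes were the 12 largest differences per direction with a brighter value above the array's 25th percentile, members in over 5 spots, clones with 3 or more probes past 1.5-fold in 1 direction (0 found), the 5 largest bounds per direction and those at the threshold. A spot's error combines the software's estimates on both arrays. Gene symbols of markers came from a RefSeq table of GRCm38.p6, matched by accession. The steps were tested on simulated data. Alternatives were other background correction, scaling, filters, matching and values. Python 3.11.15, numpy 2.4.6, pandas 2.3.3, matplotlib 3.10.9, R 4.3.3 and limma 3.58.1 were used.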

Additional observations from a re-analysis of the deposited data

Results flagged for a closer look

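Signal also appeared in clone probes that the comparison does not use. In the transgenic lung, and not in C57BL6/N, 63 of the 2480 clone probes passed the detection flag, against 984 of all 39429 non-control probes. Of the 63, 14 (22.2%) had a bound of at least 2-fold, and for 2 the signal did not exceed the bound's floor. The clone share was below that of all 984 probes detected in the transgenic alone, 34.1%. In C57BL6/N alone 110 clone probes passed the flag, and 35 of them had a bound of at least 2-fold. After normexp, whose offset by itself shrinks such bounds, 0 of the 63 and 2 of the 110 had a bound of 2-fold. Each group had 1 array, so there was no search for outlying samples.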

How the results depend on the processing

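Alternatives were run for the counts, medians and shares of all clone probes, for named probes and for bounds. The direction of these held under each alternative run. The results by brightness, probe prefix, band of the array and other accession types were not rerun. Those by accession range were repeated only among A_55 probes. Values that moved were as follows. With normexp (without 7 spots at or below their local background), 47 clone probes were at least 2-fold lower and 3 higher, and 238 and 13 at 1.5-fold; the median was -0.26, its distance from matched NM probes -0.19, and the shares at 2-fold differed from theirs by 3.08 (lower) and -1.30 (higher) percentage points. With no filter on dim probes these were 319 and 103, 717 and 212, -0.18, -0.12, 6.41 and -5.015. With the stricter filter they were 94 and 3, 242 and 13, -0.46, -0.43, 12.95 and -3.65, over 616 members. The median was -0.34 with median scaling and -0.29 with cyclic loess, where the shares differed by 7.65 and -5.32. Without scaling, chosen after seeing the data, 109 were 2-fold lower and 83 were 1.5-fold higher, the median was -0.25 (all probes shifted by 0.15) and the shares differed by 6.56 and -5.835. The share higher differed by -2.32 with no matching and by -3.13 when matched on the transgenic signal, also chosen after seeing the data. Among values of single probes and bounds under the alternatives, 314 stayed within the repeat-spot SD and 71 moved by more, 35 of them without scaling and 32 with normexp, and none turned. Most of these probes were picked for large differences in the same spots, so the unchanged direction adds no support. No paired analysis was possible because each group has 1 array, and leaving out an array leaves no comparison. Dim signal limits the counts, as the filter values show, and the offset in normexp by itself shrinks dim differences.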
